A study of Mus musculus with 4 samples.

Results

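The EGR, NR4A and IER early genes together with Srf were described in mouse mammary tumour cells labelled Pak1-/- and Pak1+/+, after the genotype for Pak1, the p21-activated kinase that acts below the small GTPases Rac and Cdc42. The members were 10 genes, Egr1, Egr2, Egr3, Egr4, Nr4a1, Nr4a2, Nr4a3, Ier2, Ier3 and Srf, out of 31874 gene names on the array. A probe belonged to a member when it was not a control and the array design named it after that gene. This gave 12 probes, and where a gene had 2 of them the one with the brightest signal over the 4 arrays stood for the gene.

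Total RNA from 4 samples was labelled with Cy3 and hybridised to single-colour Agilent arrays of 60-base probes. The 2 Pak1-/- samples and the 2 Pak1+/+ samples were tumour cells cultured from MMTV-Neu animals, whose Neu oncogene (Her2, gene Erbb2) is driven in mammary epithelium by the promoter of the mouse mammary tumour virus. According to the series design, the samples of a group came from different tumours, so they were taken as replicates. Both groups carried the Neu transgene, were kept in low calcium medium containing horse serum, were deprived of serum for 3 h and were then exposed to EGF for 15 min before harvest. Strain and age are not given in the sources used here. No sample without EGF was analysed here, so each value below is a level after EGF and not an induction by EGF. The arrays shared 1 slide, with Pak1-/- at positions 1 and 2 and Pak1+/+ at positions 3 and 4, and position and genotype cannot be told apart.

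Immediate early genes are transcribed within minutes of growth factor stimulation without new protein synthesis. Downstream of the EGF receptor, ERK phosphorylates ternary complex factors such as Elk1, which sit with serum response factor (the Srf protein) on CArG boxes in the promoters of the EGR genes and other early genes, while a second set of Srf cofactors, the myocardin-related factors, follows the state of the actin cytoskeleton. The RSK and MSK kinases below ERK phosphorylate CREB, which binds cyclic AMP response elements in promoters of the NR4A genes. The EGR proteins are zinc finger transcription factors, the NR4A proteins are orphan nuclear receptors, and Ier2 and Ier3 encode small early response proteins.

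The sequences of 3 member probes are shown first. These probes of Egr3, Nr4a2 and Ier2 reported differences described below, and each of the 3 contains a reading frame without a stop codon. Probes of other members, such as Ier3 and Egr4, contain such a frame too. They are written 5′ to 3′ on the strand of the gene, as the array files give them.
Egr3: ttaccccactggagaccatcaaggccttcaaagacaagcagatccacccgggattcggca
Nr4a2: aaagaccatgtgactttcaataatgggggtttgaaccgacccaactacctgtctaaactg
Ier2: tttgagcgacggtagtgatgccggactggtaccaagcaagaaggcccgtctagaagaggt
On mm9, the build of the files, the Egr3 probe lies at chr14:70479222-70479281 on the plus strand, the Nr4a2 probe at chr2:56960699-56960758 on the minus strand and the Ier2 probe at chr8:87186214-87186273 on the minus strand.

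Promoter windows from 250 bases before to 50 bases after the gene start were taken from RefSeq (GRCm38.p6) and matched for 7 of the 10 members, Egr2 with 5 start sites. No window was available for Egr1, Egr3 or Ier2, so these genes were not searched for any site. The CArG box, searched on both strands, occurred in 1.63% of all 32851 windows. Among the members with a window it was present in that of Srf, with 2 matches, and in 4 of the 5 windows of Egr2. Of these Egr2 windows, 3 overlap and share the same box. The Srf stretch comes from chr17:46556183-46556282 on the minus strand and ends 20 bases short of the start, and the Egr2 stretch is chr10:67537787-67537816 on the plus strand. Capitals mark the CArG boxes.
Srf: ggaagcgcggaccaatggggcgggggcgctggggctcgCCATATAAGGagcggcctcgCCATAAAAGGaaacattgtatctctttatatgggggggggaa
Egr2: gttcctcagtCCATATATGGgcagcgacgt
The boxes of Srf begin 82 and 62 bases before the start, and the Egr2 box begins 72 bases before one of the Egr2 starts. The cyclic AMP response half-site TGACG, also searched on both strands and without overlap with the CArG box letters, occurred in 20.8% of all windows. It had 4 matches in each of the windows of Nr4a1, Nr4a2 and Nr4a3, 2 in that of Egr4, 1 in that of Srf, and 2 in each of the 3 overlapping windows of Egr2. The stretch of Nr4a2 that holds its matches is chr2:57124084-57124223 on the minus strand, with the half-sites in capitals, in either orientation.
Nr4a2: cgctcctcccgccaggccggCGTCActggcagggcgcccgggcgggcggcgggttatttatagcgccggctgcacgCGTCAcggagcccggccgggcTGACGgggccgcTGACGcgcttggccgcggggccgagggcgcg
The letters GCGTGGGCG, which EGR proteins bind, and AAAGGTCA, the monomer site of the NR4A proteins, were in 0.612% and 1.51% of all windows and in none of the member windows. These matches describe the letters of the windows and were not tested for binding.

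The values below are normalized log2 intensities, in which a difference of 1 is a doubling of signal, and differences are Pak1-/- minus Pak1+/+ with the standard error (SE) of the fit. Calls refer to a p-value under 0.05 from limma, adjusted over all 27215 probes tested. Spot signal was similar on the 4 arrays (median 322 to 331, over a median background of 39 to 42), and 62.2% to 70.4% of the probes were well above background. The Pak1 probe, whose place relative to the deleted part of the gene is not given in the sources used here, read 12.21 and 12.25 on the Pak1-/- arrays and 12.04 on each Pak1+/+ array. It was not lower in the samples labelled Pak1-/- (difference 0.19, SE 0.07, adjusted p = 0.070), and with cyclic loess normalization it passed as higher there (0.27, adjusted p = 0.027), so every direction given here is that of the labels. The array's mouse Erbb2 probe, which was not shown to measure the Neu transgene, was lower by 0.31 in Pak1-/- (SE 0.07, adjusted p = 0.020), a call that was lost without Pak1-/- replicate 1 (adjusted p = 0.066) and without Pak1+/+ replicate 1 or 2 (adjusted p = 0.11 and 0.079). In RNA from a mass of cells, fewer cells of a type and less RNA per cell cannot be told apart.

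Of the 10 member genes, 8 were bright enough to be tested and 5 of these passed the threshold. Srf, Egr3, Nr4a2 and Ier2 were higher in Pak1-/-, Ier3 was lower, and Egr1, Egr2 and Nr4a1 did not pass. Among all 21994 genes tested, 22.8% were higher and 28.2% were lower, so that calls were common on these arrays in either direction. Of the probes called, 44.9% were higher, and 52.4% with cyclic loess normalization. Srf, Egr3 and Nr4a2 passed the threshold with fitted differences of at least 2-fold. Of all genes tested, 7.00% met both conditions in that direction. Srf was near that limit, at 0.95 with the processed signal, 0.97 with scaling to the 75th percentile, 0.80 without Pak1-/- replicate 1 and 0.68 as the mean of its probes. The size of Egr3 is uncertain, since it was dim on 1 of the Pak1+/+ arrays. The median difference of the 8 tested members was 0.47, against -0.055 over all genes tested. No overlap between the groups was seen for 6 of the 8, close to the share among all genes, which was 77.6%.

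**Figure D1:**
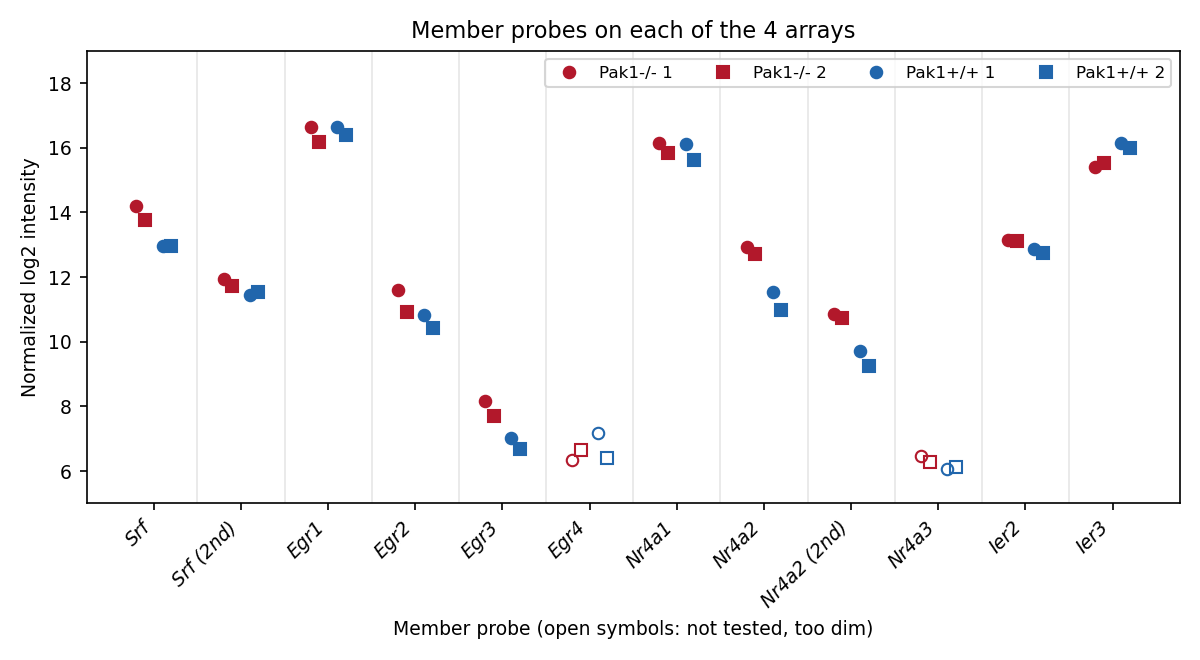
Normalized log2 intensity (vertical axis) of the 12 member probes on each array, with Pak1-/- in red and Pak1+/+ in blue, circles for sample 1 and squares for sample 2; "2nd" is the dimmer probe of a gene and open symbols are probes too dim to be tested. Both red points lie above both blue points for Srf, Nr4a2, Egr3, Egr2, Ier2 and the untested Nr4a3, and below them for Ier3. The points of Egr1 and Nr4a1 are interleaved.

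Srf, the serum response factor itself, was higher in Pak1-/-. Its brighter probe read 14.18 and 13.77 on the Pak1-/- arrays and 12.96 and 12.97 on the Pak1+/+ arrays. The Pak1+/+ samples were nearly equal, and both Pak1-/- samples lay above them, replicate 1 further than replicate 2. The difference was 1.01 (SE 0.15, adjusted p = 0.0059), a 2.01-fold higher signal, and it stayed past the threshold in the 16 alternatives run. The dimmer probe (mm9 chr17:46685306-46685365, minus strand) read 11.95 and 11.74 against 11.46 and 11.54. It moved in the same direction but by less, 0.34 (SE 0.10, adjusted p = 0.043), and that call was lost in 8 of the 15 alternatives run. It was lost without Pak1-/- replicate 1 (adjusted p = 0.12) and without Pak1+/+ replicate 1 or 2 (adjusted p = 0.16 and 0.093), and also without the offset added to all intensities (0.056), with the scanner's processed signal (0.064) and with no filter on dim probes (0.073). The 2 probes therefore gave different sizes for the same gene. The files place the brighter probe on an interval of only 8 bases, shorter than the probe, so its full extent is not known from them.

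Of the EGR factors, which share a zinc finger DNA-binding domain, Egr3 passed, Egr1 and Egr2 did not and Egr4 was too dim to be tested. Egr1, the family member most often followed as a marker of growth factor signalling, read 16.66 and 16.19 in Pak1-/- and 16.63 and 16.41 in Pak1+/+. The Pak1+/+ values lay between those of the Pak1-/- samples. The difference of -0.098 (SE 0.18, 95% interval -0.58 to 0.38, adjusted p = 0.68) did not pass, and its sign turned without Pak1-/- replicate 2 (0.14) and without Pak1+/+ replicate 1 (0.013). Scaling to the 75th percentile in place of quantile normalization moved it to -0.30, and the processed signal so scaled to -0.34, neither past the threshold (adjusted p = 0.16 and 0.19). The probe was not saturated on any array.

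Egr2, known for its role in myelinating cells and hindbrain patterning, read 11.59 and 10.92 in Pak1-/- against 10.84 and 10.42 in Pak1+/+. The lower Pak1-/- sample was only just above the higher Pak1+/+ sample, and the groups did not overlap. The difference was 0.63 (SE 0.27, 95% interval -0.078 to 1.33) with an adjusted p of 0.11. With the replicate number as a block in the fit, the same difference passed (adjusted p = 0.011), although the labels do not pair the samples. It depended on which sample was left out, being 0.96 (adjusted p = 0.046) without Pak1-/- replicate 2 and 0.29 (adjusted p = 0.35) without Pak1-/- replicate 1.

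Egr3, a factor closely related to Egr1 that the same stimuli induce, was higher in Pak1-/-. Its probe read 8.15 and 7.70 in Pak1-/- and 7.02 and 6.69 in Pak1+/+, and it was not well above background on the array of Pak1+/+ replicate 2. Both Pak1-/- samples were above both Pak1+/+ samples. The fitted difference was 1.07 (SE 0.20, adjusted p = 0.010), with only 1 of the Pak1+/+ arrays well above background, so its size is uncertain. The size also depended on the background handling, since it rose to 1.57 without the offset added to all intensities and to 2.09 with the scanner's own background-subtracted signal. Egr4, the remaining EGR factor (mm9 chr6:85461153-85461212, minus strand), read 6.34 and 6.64 in Pak1-/- and 7.18 and 6.39 in Pak1+/+ and was well above background only in Pak1+/+ replicate 1. The groups overlapped, and it was not tested.

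Of the NR4A receptors, which bind DNA without a classical ligand, Nr4a2 passed, Nr4a1 did not and Nr4a3 was too dim to be tested, and the differences between these genes were not tested. Nr4a2 (Nurr1), required for midbrain dopaminergic neurons and also an early response gene, was higher in Pak1-/-. Its brighter probe, printed above, read 12.93 and 12.71 in Pak1-/- and 11.53 and 10.99 in Pak1+/+. The lowest Pak1-/- value exceeded the highest Pak1+/+ value by more than the spread within either group. The difference was 1.56 (SE 0.20, adjusted p = 0.0039), a 2.95-fold higher signal. The other Nr4a2 probe (mm9 chr2:56959637-56959696, minus strand) read 10.87 and 10.72 against 9.70 and 9.25, a difference of 1.31 (SE 0.17, adjusted p = 0.0036). Both probes thus showed the same order of the 4 samples, and neither lost its call in any alternative run.

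Nr4a1 (Nur77), an early gene linked to apoptosis and metabolism, read 16.15 and 15.85 in Pak1-/- and 16.11 and 15.62 in Pak1+/+. The samples of the groups alternated. The difference of 0.13 (SE 0.20, 95% interval -0.40 to 0.66, adjusted p = 0.61) did not pass, and it fell below 0 when either Pak1-/- replicate 1 (-0.018) or Pak1+/+ replicate 2 (-0.11) was left out. Nr4a3 (Nor1) was measured by a probe spotted 10 times. It read 6.45 and 6.28 in Pak1-/- and 6.06 and 6.12 in Pak1+/+, was not well above background on any of the 4 arrays, and was not tested.

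The IER genes went in opposite directions. Ier2, which encodes a nuclear protein, read 13.16 and 13.12 in Pak1-/- and 12.88 and 12.76 in Pak1+/+. The samples of each group were close together and the groups did not overlap. The difference was 0.32 (SE 0.08, adjusted p = 0.026), a 1.25-fold higher signal. This call was lost with the processed signal scaled to the 75th percentile (0.27, adjusted p = 0.079) and when any single array was left out, with an adjusted p of 0.091 without Pak1-/- replicate 1, 0.067 without Pak1-/- replicate 2, 0.057 without Pak1+/+ replicate 1 and 0.14 without Pak1+/+ replicate 2. Ier3 (IEX-1), an ERK substrate with a part in cell survival, read 15.40 and 15.53 in Pak1-/- and 16.14 and 15.98 in Pak1+/+. Both Pak1-/- samples were below both Pak1+/+ samples. It was the only member called lower, by 0.59 (SE 0.10, adjusted p = 0.0071) or 1.51-fold, and the call held in the 16 alternatives run.

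**Figure D2:**
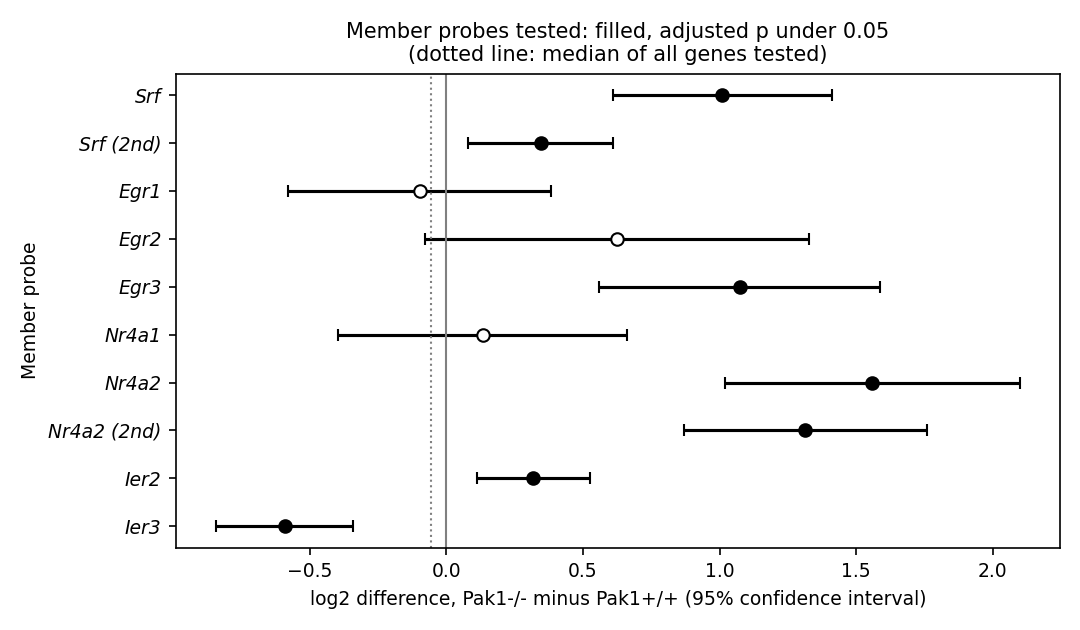
Log2 difference (Pak1-/- minus Pak1+/+, horizontal axis) of the 10 tested member probes with its 95% confidence interval from the limma fit; filled points passed an adjusted p of 0.05 and the dotted line is the median of all genes tested (-0.055). The intervals of Egr1, Egr2 and Nr4a1 include 0, and only the interval of Ier3 lies wholly below it.

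**Figure D3:**
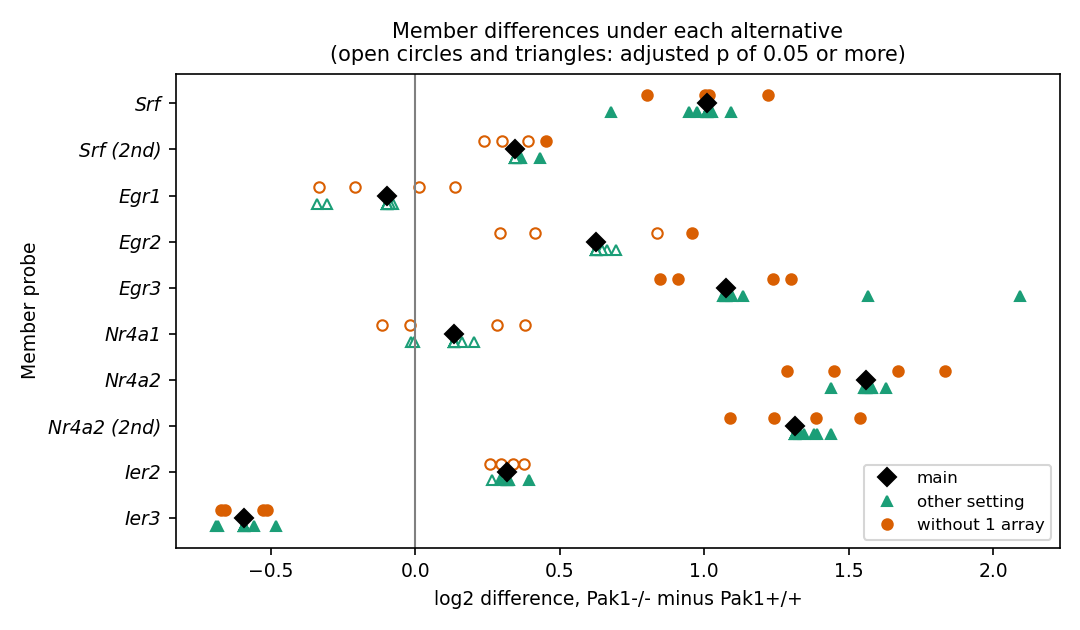
The same differences (horizontal axis) in the main setting (diamonds), under other processing settings (triangles) and without 1 array (circles); open circles and triangles had an adjusted p of 0.05 or more, and triangles at the main value lie under the diamond. The brighter Srf probe, both Nr4a2 probes, Egr3 and Ier3 stayed on their side of 0 with filled symbols only, though Egr3 had no value in 1 setting. Ier2 had open circles throughout, and Egr1 and Nr4a1 crossed 0.

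The spread between the samples of a group was wider for the members than for most genes. The median absolute difference between the 2 samples was 0.36 for the 8 tested members in Pak1-/- and 0.27 in Pak1+/+, against 0.11 and 0.083 over all genes tested. In Pak1-/- the gap of Egr2 was 0.67, larger than that of 98.5% of genes, and in Pak1+/+ the gap of Nr4a2 was 0.55, larger than that of 96.9%. Ier2 had the smallest gap in Pak1-/-, 0.043, and Srf the smallest in Pak1+/+, 0.013. In each group, 7 of the 8 members were lower in the sample numbered 2, whereas over all genes 50.3% and 51.2% were. The exceptions were Ier3 in Pak1-/- and Srf in Pak1+/+. The labels do not say whether the numbers link a sample of 1 group to a sample of the other, and this was not tested for the members.

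**Figure D4:**
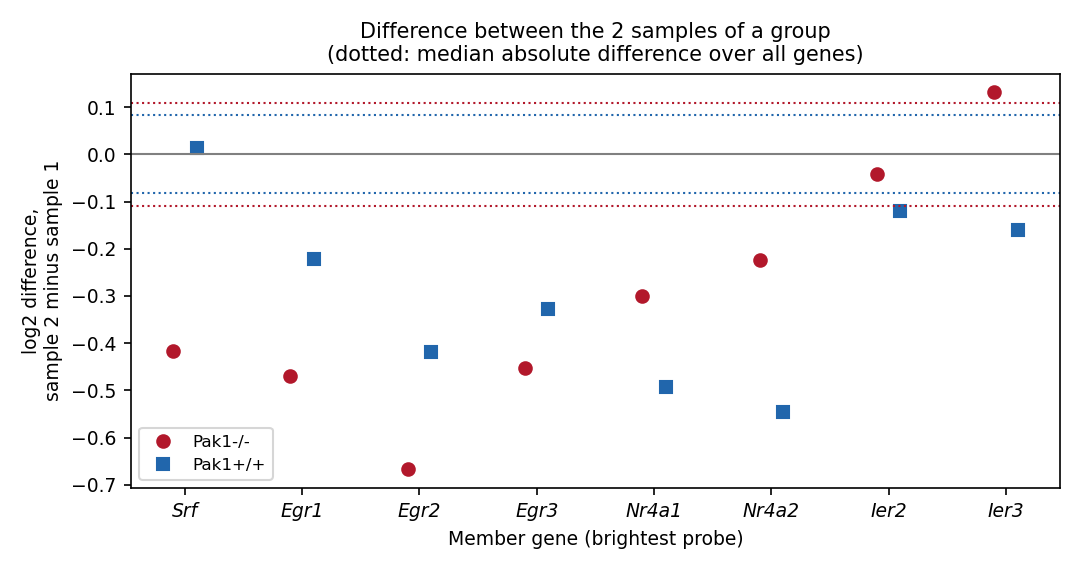
Log2 difference between sample 2 and sample 1 of a group (vertical axis) for the brightest probe of each tested member, with Pak1-/- as red circles and Pak1+/+ as blue squares; dotted lines mark the median absolute difference over all genes in each group (0.11 and 0.083). Nearly all points lie below 0, and most lie outside the dotted lines.

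Around the members, the partners with which they act were examined. Of 12 Srf cofactors, EGR corepressors and NR4A partners, 11 were tested, of which 3 were higher, 2 were lower and 6 did not pass, with a median difference of 0.19. Over all genes tested, 22.8% were higher and 28.2% were lower, with a median of -0.055. Mrtfb, an actin-regulated coactivator of Srf, was higher by 0.98 (SE 0.09, adjusted p = 0.0017), and Rxra, a retinoid receptor with which Nr4a1 and Nr4a2 can pair, by 0.82 (SE 0.07, adjusted p = 0.0012). The third was Mrtfa, the other actin-regulated coactivator, named here after its value was seen (0.68, SE 0.10, adjusted p = 0.0052). The EGR corepressors Nab2 and Nab1 were the genes that were lower, by 0.55 (SE 0.09, adjusted p = 0.0075) and 0.41 (SE 0.10, adjusted p = 0.028). The Nab1 call was lost without Pak1-/- replicate 1 or 2 or Pak1+/+ replicate 1, each with an adjusted p of 0.10, and with cyclic loess normalization (-0.32, adjusted p = 0.053). The probe that stood for Elk1 was saturated on all 4 arrays, so it could not show a difference.

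In the chain from the EGF receptor to ERK, RSK and MSK, all 21 genes were tested, of which 8 were higher, 6 were lower and 7 did not pass, with a median of -0.041. The shares over all genes tested were 22.8% higher and 28.2% lower. Creb1 was counted as higher by its brightest probe (0.35), but another of its probes was called in the opposite direction. The largest rises were those of Rps6ka1 (RSK1), by 1.13 (SE 0.07, adjusted p = 0.00048), and of the adaptor Shc1, by 0.67 (SE 0.07, adjusted p = 0.0019). The largest falls were those of the Ras exchange factor Sos2, by 0.83 (SE 0.08, adjusted p = 0.0018), and of Rps6ka3 (RSK2), by 0.57 (SE 0.09, adjusted p = 0.0058). Calls in this list were not stable in number, since 8 or 9 genes passed in place of 14 when any array was left out: 9 without Pak1-/- replicate 1 or 2 and 8 without Pak1+/+ replicate 1 or 2. These are transcript levels, and the activity of the kinases was not measured here.

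Of 33 other immediate early genes, all tested, 21 were higher, 7 were lower and 5 did not pass, with a median of 0.51. Over all genes tested, 22.8% were higher and 28.2% were lower. The largest rises were those of the AP-1 factor Jun (2.51, SE 0.19, adjusted p = 0.00087) and of the matricellular protein gene Ccn1 (2.19, SE 0.21, adjusted p = 0.0017). The ERK phosphatase gene Dusp6 fell by 1.37 (SE 0.11, adjusted p = 0.0011) and Myc by 1.20 (SE 0.09, adjusted p = 0.00088).

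Srf also drives cytoskeletal and contractile genes. Of 18 such targets, 17 were tested, of which 12 were higher, 1 was lower and 4 did not pass, with a median of 0.93. The shares over all genes tested were 22.8% higher and 28.2% lower. Tpm2, a tropomyosin, was higher by 3.04 (SE 0.27, adjusted p = 0.0013) and Acta2, smooth muscle actin, by 1.69 (SE 0.19, adjusted p = 0.0026). The gene that was lower was Tgfb1i1 (Hic-5), a focal adhesion adaptor, named here because it was the single fall (adjusted p = 4.6e-05). It read 6.80 and 6.82 in Pak1-/- and 10.71 and 10.64 in Pak1+/+, and since it was not well above background on 1 of the Pak1-/- arrays, the size of the fall is not given. Of the 4 that did not pass, the probes of Actb and Actg1 were saturated on all 4 arrays. The others, named here for completeness, were Tagln and Cnn1. Tagln was well above background on all 4 arrays, not saturated, and leaned lower (-0.20, adjusted p = 0.13). Cnn1 was well above background on only 2 arrays (0.036, adjusted p = 0.83). Several of these genes are also expressed by basal mammary cells, and all 4 basal epithelial markers were higher in Pak1-/-, Krt17 by 4.92, Krt14 by 2.83, Krt5 by 0.50 and Trp63 by 0.43. The summed linear signal of the basal markers was 85704 to 93227 in Pak1-/- and 18437 to 18965 in Pak1+/+, and their part in the values of Srf and its targets was not tested.

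**Figure D5:**
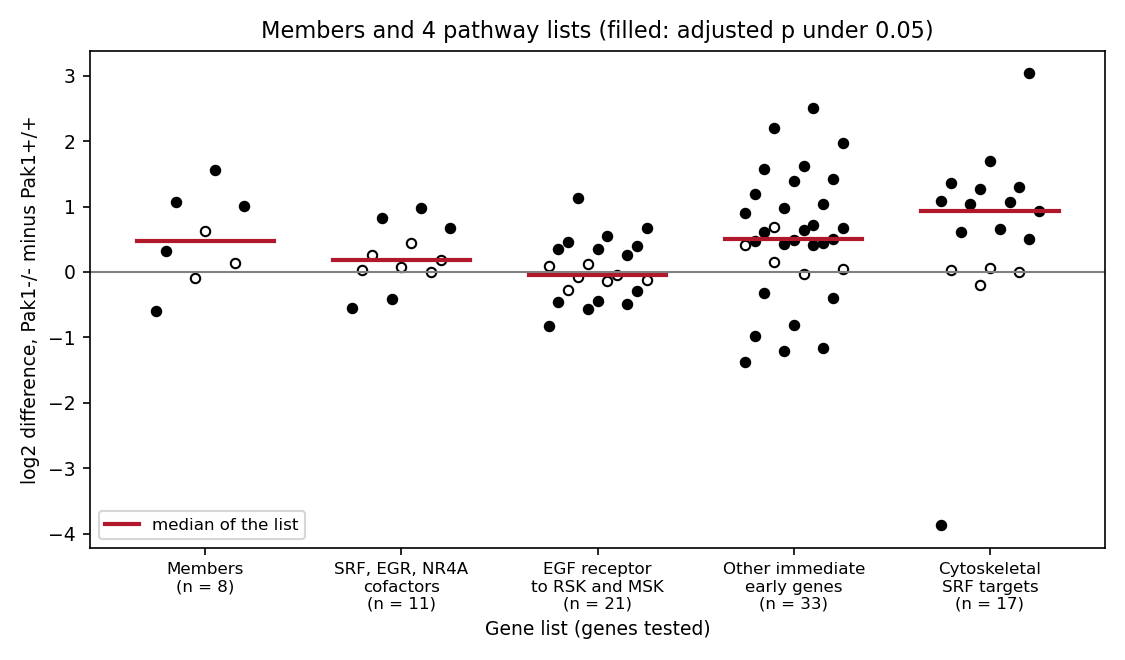
Log2 difference (Pak1-/- minus Pak1+/+, vertical axis) of each tested gene among the members and the 4 pathway lists, with filled points past an adjusted p of 0.05 and red bars at the median of each list. The medians run from -0.041 for the EGF receptor chain to 0.93 for the cytoskeletal targets of Srf, with the members at 0.47. The lowest point is Tgfb1i1, which was dim on 1 of the Pak1-/- arrays.

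The labelled cell type was set against markers. Of 6 luminal epithelial markers, 5 were well above background on all 4 arrays, Krt8 and Krt18 among them, with 3 higher in Pak1-/-, none lower and 3 not past the threshold. Their summed linear signal was 933070 to 947062 in Pak1-/- and 720220 to 723168 in Pak1+/+. Among the 6 fibroblast markers, Col3a1, Dcn and Lum were dim on all arrays and Col1a1 was higher by 1.12, and the summed signal was 1211 to 1372 against 1004 to 1051. Of 6 leukocyte markers, none was higher and 2 were lower (Adgre1 and Ptprc). Their summed signals of 50435 to 72880 against 41580 to 46566 came almost wholly from Itgam, which did not pass (0.49, adjusted p = 0.11). None of 3 endothelial markers passed, with sums of 9840 to 10223 against 8909 to 10717, and neither of the 2 adipocyte markers was tested, with sums of 179 to 206 against 177 to 193. The part of these cell types in the members' values was not tested.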

How the data were processed

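The authors deposited linear spot intensities of 4 arrays, made per the file headers with Feature Extraction 9.5.3.1 and not normalized between arrays, and a table of log2 values that their methods describe as normexp corrected and quantile normalized. Values were computed here from the deposited intensities with limma 3.58.1 (R 4.3.3): normexp with an offset of 50 on all spots, removal of controls, log2, quantile normalization, removal of outlier spots and averaging of the spots of each of 39429 probes. The offset understates the change of dim probes. The lowest r with the deposited log2 table was 0.9998 across probes. A probe was kept if 2 or more of the 4 arrays had it well above background. This left 27215 after 14 without a value on some array were dropped. Groups were compared with lmFit and eBayes (two-sided, genotype only, 2 residual and 2.63 prior degrees of freedom), adjusted by Benjamini-Hochberg, threshold 0.05. The fit was tested on simulated data. An exact permutation of 2 against 2 cannot give a p below 0.333. Precision is limited by the small number of arrays. Accessions of 26055 probes matched a RefSeq table used for names. Figures were drawn with matplotlib.

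The members and lists were chosen with earlier results of these data known. The text names all members, Pak1, Erbb2, and from each pathway list the 2 largest rises and 2 largest falls past the threshold that were above background on all arrays, with exceptions stated. Alternatives changed the background correction, scaling, filter, outlier flags, value source, replicate block, samples, threshold and probe choice.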

Additional observations from a re-analysis of the deposited data

How the results depend on the processing

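Among the member probes, the brighter Srf probe, Ier3 and both Nr4a2 probes kept direction and call in all alternatives run. The sign of Nr4a1 turned with the processed signal scaled to the 75th percentile (-0.015), with normexp values scaled to it (-0.0029), without Pak1-/- replicate 1 (-0.018) and without Pak1+/+ replicate 2 (-0.11), and that of Egr1 without Pak1-/- replicate 2 (0.14) and without Pak1+/+ replicate 1 (0.013). Over the 4 fits that left out 1 array, Nr4a1 ran from -0.11 to 0.38 and Egr1 from -0.33 to 0.14. In these fits the lone sample is assumed to vary like the other group. An adjusted p under 0.01 gave 8900 probes in place of 14144, 2 members higher in place of 4, and 7 genes of the EGF receptor chain in place of 14. Leaving out 1 array gave 10312 to 12169 probes, 3 to 4 members higher and 1 lower, and 8 to 9 genes of the EGF receptor chain, 4 to 6 cofactors, 21 to 25 other early genes and 11 to 13 cytoskeletal targets. The replicate differences of the groups had r = -0.028 across probes. This value cannot show whether a few early genes shared a replicate effect. With the replicate block, 13202 probes passed, and 5 members were higher, Egr2 included (adjusted p = 0.011), while the dimmer Srf probe lost its call (adjusted p = 0.064). Egr3 had no value where probes had to be well above background on all 4 arrays. The size of Egr3 ran from 0.85 to 2.09 over the alternatives.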
